A study of Rattus norvegicus with 138 samples.

Results

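The comparison set the injured tibialis anterior muscle of running rats against the contralateral muscle of running rats 3 days after volumetric muscle loss (VML), the surgical removal of a block of muscle too large for the tissue to replace on its own. Its members are the libraries labelled Run at day 3, with the muscle labelled VML on the injured side and NoVML on the contralateral side, and with either NoRepair or MMG (minced muscle graft) as the repair label. They were 23 libraries, 16.7% of the series. After 3 libraries with fewer than 7000 gene symbols above 1 TPM (transcript abundance per length, scaled to a fixed total per library) were dropped and libraries of one muscle were averaged, 20 libraries gave 18 of the 114 muscles of the series, from 14 rats. The injured side held 14 muscles, 8 without repair and 6 with the graft, and the contralateral side held 4, 2 from each repair arm.

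All animals were labelled as Lewis rats, inbred males per the study's methods, and the injury was a punch through the middle of the left muscle. In the MMG arm the removed tissue was minced and put back into the defect of the same rat. Contralateral muscles came only from rats TS5.001, TS5.002, TS5.005 and TS5.006, so the other 10 injured rats had no uninjured muscle of their own, and a contralateral muscle is the other leg of an operated and running animal, not an unoperated control. The labels give the running only as Run, without its form, amount or start.

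Skeletal muscle that is torn or cut is first entered by neutrophils and then by monocytes that become macrophages, which clear dead fibres and iron-rich debris. Satellite cells, the resident stem cells of the fibre, then divide, differentiate and fuse, while fibroadipogenic progenitors lay down a provisional matrix. After volumetric loss the fibre bed itself is gone, and scar is known to form where new fibres would have grown.

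A few libraries stood apart. The 3 dropped libraries carried 78.5 to 82% of their TPM in ribosomal RNA entries. The injured muscle of rat TS5.002 kept 2 libraries with 15.4 and 14.8% ribosomal RNA, against 0.0892 to 0.529% in the other kept libraries, and without that muscle 4806 genes passed the test described next, against 4763 with it. The injured muscle of rat TS5.098 had the highest summed TPM of the adult contractile genes among injured muscles, 137400 TPM against an injured median of 60070 TPM. Kept libraries held 9419 to 10698 symbols above 1 TPM. The contralateral muscles carried the defining genes of fast limb muscle at high level, with 32168 ± 1472 TPM (mean ± SD, n = 4) of Acta1, the skeletal muscle actin, and 23916 ± 1734 TPM of Ckm, the muscle creatine kinase. Acta1 was also the most abundant gene of the injured side, at 11518 ± 3523 TPM (n = 14).

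Of 10873 genes tested, 4763 (43.8%) differed between the sides, 4020 higher (37%) and 743 lower (6.83%) in injured muscle. A gene was called higher or lower, here and below, when limma's moderated test on log2(TPM + 1), with the repair arm as a covariate, gave an adjusted p under 0.05 and a log2 fold change (injured minus contralateral) beyond 1, and errors of fold changes are standard errors. Among the called genes, 4637 had no overlap between the 14 injured and 4 contralateral muscles. Over all tested genes 7258 (66.8%) did not overlap, so a lack of overlap was the common case here. TPM are shares of a fixed total, and the median log2 fold change of all tested genes was 0.65. Scaling each muscle by a size factor brought that median to 0.01 and gave 4456 called genes (41%), with 2464 higher and 1992 lower, in place of 84.4% higher among the called. A set of 3207 genes was called in the same direction both ways, 2464 higher and 743 lower. Log2 fold changes below are those without size factors, and a change that did not pass with size factors is marked beside its value. Counts on gene lists stand beside shares over all tested genes of 37% higher and 6.83% lower, or 22.7% and 18.3% with size factors.

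**Figure D1:**
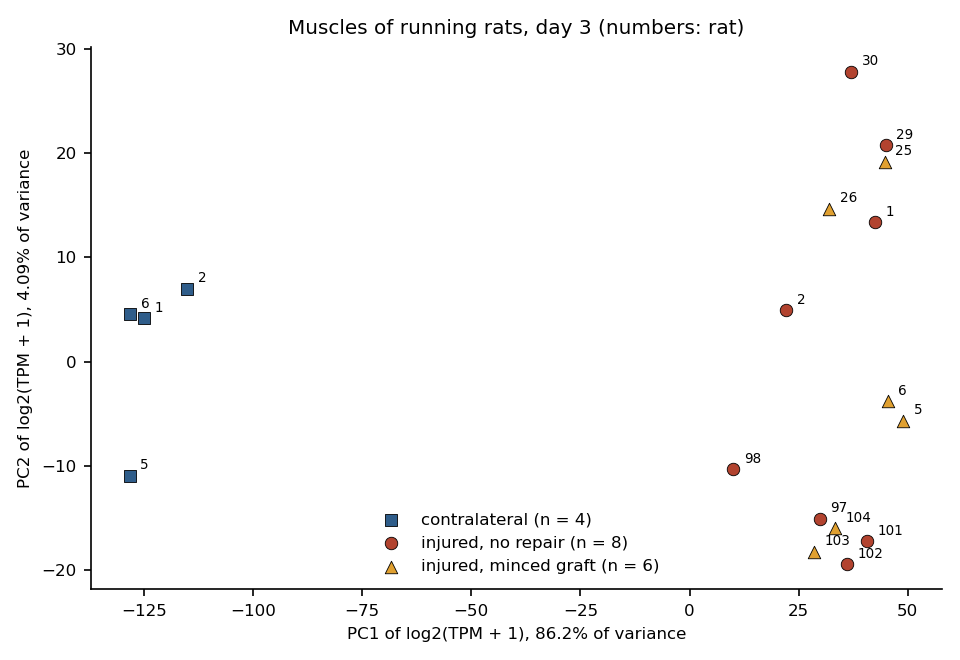
First 2 principal components of log2(TPM + 1) over the 18 muscles, with rat numbers beside the points, colour for the side and marker for the repair arm. The first component, with 86.2% of the variance, separates the 4 contralateral from the 14 injured muscles, and the second carries 4.09%.

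Pearson's correlation of log2(TPM + 1) was 0.9636 to 0.9929 over the 91 pairs of injured muscles and 0.9865 to 0.9892 over the 6 pairs of contralateral muscles. Across the sides it was 0.7573 to 0.8799 over 56 pairs. All pairs of one side were therefore more alike than any pair across the sides, and the injured muscles spanned the wider range.

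All 19 tested monocyte and macrophage markers were called higher, beside 37% of all tested genes, with a median log2 fold change of 4.15 against 0.65 over all tested genes, and all 19 remained called higher with size factors. In injured muscle their summed level was 5859 to 9895 TPM, against 193.1 to 375.1 TPM in contralateral muscle. In whole muscle, more cells of a type and more RNA per cell cannot be told apart, and this holds for every group below. Cd68, a lysosomal glycoprotein of macrophages, was at 7.94, 6.06, 4.25 and 5.94 TPM in the contralateral muscles of rats TS5.001, TS5.002, TS5.005 and TS5.006 (this order is kept throughout). Injured muscles spanned 228 to 528 TPM with a median of 396. No injured muscle came near the contralateral range, and the log2 fold change was 5.83 ± 0.19 with an adjusted p of 6.35e-16. Csf1r, the receptor for the growth factor on which macrophages depend, was at 11.3, 13.1, 9.43 and 14.7 TPM contralaterally and at 185 to 295 TPM with a median of 223 after injury. It rose by 4.15 ± 0.10 (adjusted p = 3.26e-17).

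Of the receptors on these cells, Cd163, which takes up haemoglobin bound to haptoglobin, went from 4.49 ± 1.46 TPM to 159 ± 34.4 TPM, a log2 fold change of 4.88 ± 0.17. Mrc1, the mannose receptor, went from 5.66 ± 1.3 to 171 ± 24 TPM and rose by 4.71 ± 0.12. Ccr2, the chemokine receptor of newly recruited monocytes, was at 0.36, 1.02, 0.54 and 0.54 TPM contralaterally and 7.87 to 23.8 TPM with a median of 12 in injured muscle. Its rise was 3.06 ± 0.23 (adjusted p = 2.42e-10), and the muscles of the sides did not overlap. Mpeg1, a pore-forming protein of macrophages, rose by 5.94 ± 0.14 and Lyz2, the macrophage lysozyme, by 5.53 ± 0.17, the latter reaching 4026 ± 779.7 TPM.

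Spp1 (osteopontin), a secreted matrix protein made by phagocytes in wounds, had the highest log2 fold change of all tested genes. It was at 3.22, 0.58, 0.95 and 1.12 TPM in contralateral muscle. In injured muscle it ran from 1129.7 to 9618 TPM with a median of 3927, with the top value in rat TS5.101. The log2 fold change was 10.62 ± 0.39 (adjusted p = 3.33e-15), and no muscles overlapped. Spp1 belongs to the genes that mark lipid-laden macrophages, of which 13 of 15 were called higher, with a median of 4.33. Trem2, the lipid-sensing receptor of these cells, was at 0.53, 0.46, 0.18 and 0.59 TPM contralaterally and 74.4 to 173 TPM with a median of 116 after injury, a rise of 6.39 ± 0.16 (adjusted p = 3.97e-17). Apoe, a lipid carrier, rose by 5.51 ± 0.16 to 6719 ± 1418 TPM and Fabp5, a fatty acid chaperone, by 5.45 ± 0.19. Gpnmb, a glycoprotein of phagocytes loaded with debris, rose by 4.87 ± 0.30, and its contralateral values of 47.3, 121, 100.3 and 20.9 TPM were more uneven than those of the other markers. The members that did not rise are genes of fatty acid uptake that fibres and capillaries also express. Lpl, lipoprotein lipase, was at 115 ± 9.37 and 116 ± 18.8 TPM (log2 fold change 0.00 ± 0.12, adjusted p = 0.994). Cd36, a fatty acid transporter, had a log2 fold change of -0.46 ± 0.14, which did not pass, and was called lower only with size factors (-1.21).

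Genes for heme and iron were called higher for 16 of 18 (median 2.33), and 11 of them were still higher with size factors. Hmox1, which opens heme and frees its iron, was at 6.91, 11.5, 5.55 and 6.33 TPM contralaterally. Injured muscles held 784 to 2854 TPM with a median of 1407. With a log2 fold change of 7.51 ± 0.28 (adjusted p = 2.92e-15) it had the second-highest rise of all tested genes. Both ferritin chains, which store iron, were called higher, the light chain Ftl1 by 4.45 ± 0.25 and the heavy chain Fth1 by 1.67 ± 0.20, and the second of these did not pass with size factors (0.92). Slc40a1 (ferroportin), the iron exporter, rose by 2.46 ± 0.19. Tfrc, the transferrin receptor for iron uptake, was at 29 ± 7.62 and 32.6 ± 9.4 TPM, with a log2 fold change of 0.15 ± 0.20 that did not pass. The metallothioneins Mt1 and Mt2A, which bind zinc and copper, rose by 4.73 ± 0.38 and 3.98 ± 0.30, while the contralateral values of Mt1 spread from 18.1 to 174 TPM.

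**Figure D2:**
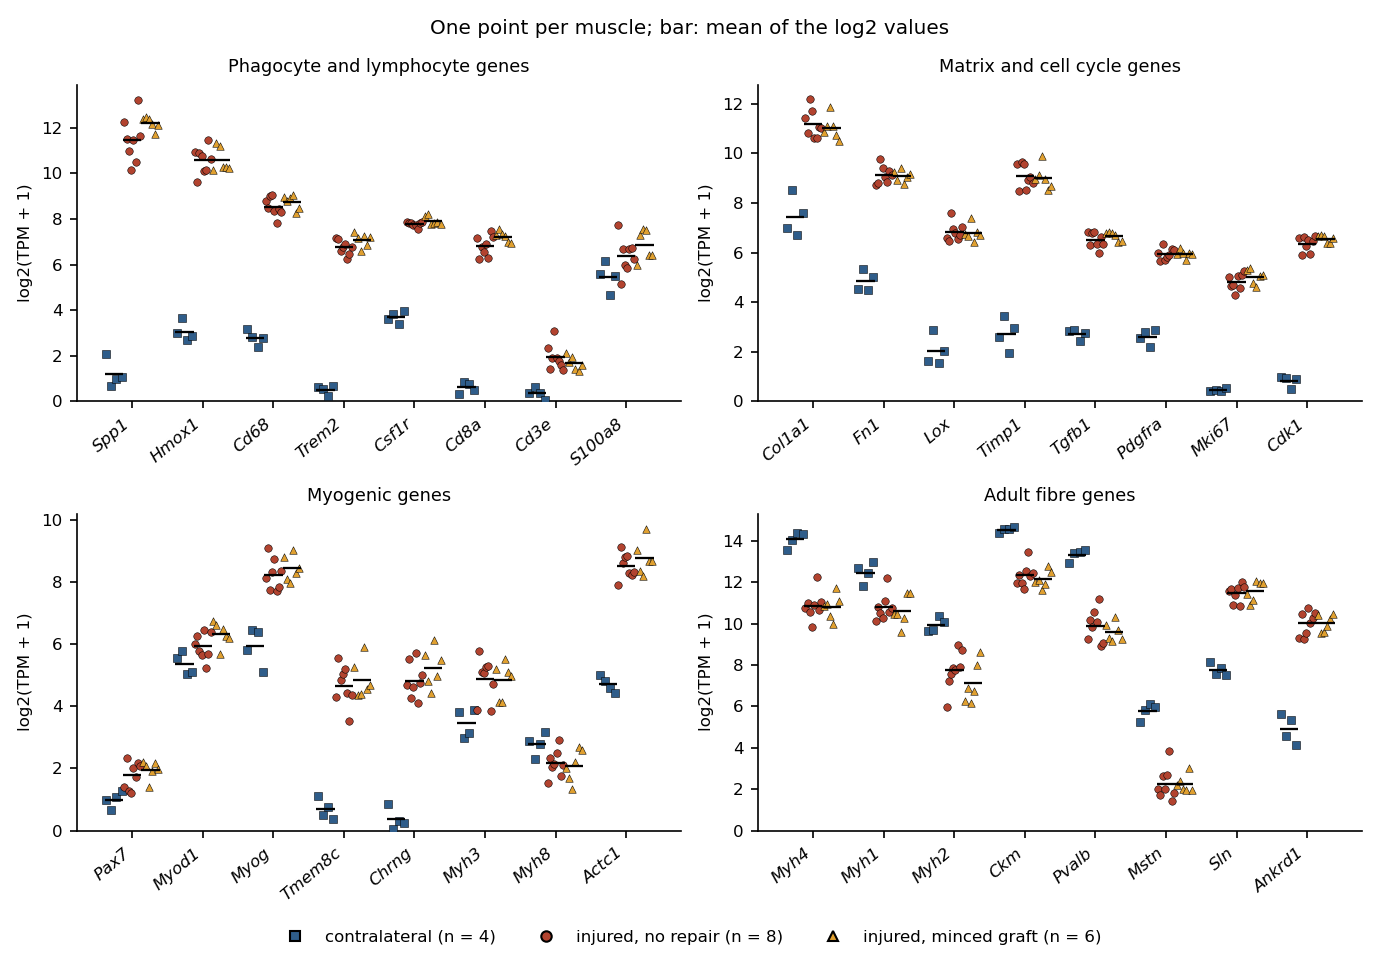
Log2(TPM + 1) of 32 listed genes in each of the 18 muscles, with a bar at the mean of each group (contralateral, injured without repair, injured with minced graft). Spp1, Hmox1, Cd68 and Trem2 do not overlap between the sides, S100a8 and Myh3 do, and Myh4 and Ckm lie lower in injured muscle.

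Neutrophil genes were less uniform. Of 12 tested markers, 10 were called higher (median 1.90), and 7 of these with size factors. The other 6 of the 18 listed markers, all of them granule or chromatin proteins of neutrophils, averaged under 1 TPM on both sides and were not tested. Trem1, a receptor of activated neutrophils and monocytes, was at 0.43, 1.12, 0.57 and 0.83 TPM contralaterally and 23.6 to 44.2 TPM with a median of 32.8 in injured muscle. It rose by 4.33 ± 0.14 (adjusted p = 6.44e-16), without overlap. Csf3r, the receptor for granulocyte colony-stimulating factor, rose by 2.58 ± 0.17 and Lcn2, a granule protein that withholds iron from bacteria, by 3.01 ± 0.40. The calprotectin genes differed from these. S100a8 was at 47.1, 69.6, 24.2 and 44.4 TPM contralaterally and 34.1 to 214 TPM with a median of 93.7 after injury, and the sides overlapped. Its log2 fold change of 1.12 ± 0.38 passed (adjusted p = 0.00933), but it was lost with size factors (0.39), in a paired fit that kept rat as a fixed block over the rats with both muscles (log2 1.06, adjusted p = 0.0532), and without the contralateral muscle of rat TS5.005 (0.81, adjusted p = 0.0705). S100a9, its partner, did not pass (0.87 ± 0.36, adjusted p = 0.0317) unless the contralateral muscle of rat TS5.002 was left out (1.11).

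The T and NK cell list moved in an uneven way. Of 14 tested markers 12 were called higher (median 1.46), 8 of them with size factors. Cd8a, the alpha chain of the CD8 co-receptor, was at 0.26, 0.83, 0.71 and 0.4 TPM contralaterally. In injured muscle it was at 75.8 to 189 TPM with a median of 133.6, a log2 fold change of 6.403 ± 0.19 (adjusted p = 1.70e-16). Cd8b, the beta chain, was at 0, 0.06, 0.13 and 0.18 TPM and 16.1 to 26.1 TPM with a median of 23.2, and rose by 4.42 ± 0.11. The T cell receptor complex lay much lower. Cd3e, its epsilon chain, was at 0.3, 0.53, 0.29 and 0.05 TPM contralaterally and 1.49 to 7.4 TPM with a median of 2.37 in injured muscle, with the top value in rat TS5.030, and rose by 1.45 ± 0.22. Cd3g rose by 1.91 ± 0.25, to 5.34 ± 2.03 TPM. On the TPM scale, which is per length, mean Cd8a was thus 131.4 TPM in injured muscle and mean Cd3e 2.75 TPM. CD8 is also known from rat macrophages and NK cells, and which cells carried it was not tested. All 6 B cell markers in the table stayed too low to test, with a summed level of at most 4.85 TPM in any muscle. Among 8 mast cell markers, Kit was called higher (1.08, lost with size factors) and Tpsb2 lower (-1.23), and 6 did not pass. Over all tested genes 37% were higher and 6.83% lower.

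Pan-leukocyte genes were higher for 21 of 22 (median 3.84). Ptprc (CD45), the phosphatase on all leukocytes, was at 2.43, 3.04, 2.26 and 2.9 TPM and 38.6 to 65.4 TPM with a median of 52. It rose by 3.86 ± 0.12 (adjusted p = 2.67e-16). Lilrb4, an inhibitory receptor of myeloid cells, rose by 6.34 ± 0.15 and Cd53, a leukocyte tetraspanin, by 4.94 ± 0.13. All 8 listed NADPH oxidase genes were higher (median 3.53). Most of them encode the phagocyte oxidase, which makes superoxide, with its catalytic subunit Cybb up by 4.93 ± 0.13, and Nox4 (2.03) and Duox1 (1.64) are separate oxidases. Lysosomal proteases and hydrolases were higher for 23 of 24 genes (median 2.48). Ctsb, cathepsin B, went from 154 ± 24.9 to 2952 ± 472 TPM and Lgals3, galectin-3, which marks damaged lysosomes, from 24.6 ± 7.13 to 1442 ± 273 TPM.

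Chemokines that call in monocytes rose as well. In the CC family 15 of 17 tested ligands and receptors were higher (median 3.31). Ccl2, the main monocyte attractant, was at 3.08, 2.22, 3.28 and 5.33 TPM contralaterally and 88.7 to 439 TPM with a median of 257 in injured muscle. The log2 fold change was 5.69 ± 0.38 (adjusted p = 2.56e-11), and no muscles overlapped. Its relative Ccl7 rose by 6.02 ± 0.37 and Ccl6 by 4.33 ± 0.18. In the CXC family 16 of 18 were higher (median 2.60). Pf4 (CXCL4), which platelets and macrophages make, rose by 4.41 ± 0.22 to 1498 ± 450.0 TPM. Cxcl3, a neutrophil attractant, was listed at 0 in all 4 contralateral muscles and ran from 1.07 to 37.6 TPM with a median of 5.96 after injury. Cxcl10, an interferon-driven lymphocyte attractant, rose by 3.12 ± 0.40, with the top value of 78.3 TPM in rat TS5.030 against a median of 13.8.

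Interleukin-1 and interleukin-6 family genes were higher for 19 of 23 and lower for 1. Il1b, the inflammatory ligand, was at 1.22, 2.92, 1.81 and 2.33 TPM and 6.47 to 26.4 TPM with a median of 12.9, a rise of 2.23 ± 0.29. Il1rn, the antagonist that blocks its receptor, rose by 3.95 ± 0.39, and in injured muscle its mean of 37.9 ± 30.5 TPM lay above the 14.2 ± 6.11 TPM of Il1b. Il1rl1 (ST2), the receptor for interleukin-33, rose by 5.62 ± 0.21 from 0.557 ± 0.196 TPM. For Il6, a cytokine of both wounds and working muscle, contralateral values were 0.15, 0.15, 0.12 and 0.04 TPM and injured muscles held 2.87 to 48.8 TPM with a median of 6.21. It rose by 3.11 ± 0.54 (adjusted p = 2.19e-05). The paired receptors went apart. Osmr, the oncostatin M receptor, rose by 2.75 ± 0.16 and Lifr, the receptor for leukaemia inhibitory factor, fell, at a log2 fold change of -1.07 ± 0.18 that dropped below the fold limit without the contralateral muscle of rat TS5.005 (-0.95). Socs3, the feedback inhibitor of this pathway, rose by 4.01 ± 0.35.

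Interferon-response genes were higher for 19 of 27 tested (median 1.49) and 12 of these passed with size factors. Irf8, a transcription factor of monocytes as much as of interferon, rose by 4.26 ± 0.11. Mx1, an antiviral GTPase, rose by 2.54 ± 0.42 over a wide injured range of 5.22 to 66.7 TPM with a median of 12.5. Complement genes were higher for 16 of 23 and lower for 1, Masp1, beside 37% and 6.83% of all tested genes. C1qa, which starts the classical cascade, rose by 2.86 ± 0.24 and the anaphylatoxin receptor C3ar1 by 4.49 ± 0.13. All 10 MHC class II presentation genes were higher, with and without size factors (median 2.99). Cd74, the invariant chain that guards the peptide groove, went from 90.1 ± 26.8 to 633 ± 276 TPM. RT1-Da, the alpha chain of the rat DR molecule, rose by 3.12 ± 0.26, and Ciita, the switch that turns the set on, by 2.06 ± 0.16.

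The proteasome split by subunit. Of 32 tested subunits 29 did not pass, and the 3 called higher were Psmb8 (2.95 ± 0.15), Psmb9 (2.93 ± 0.16) and Psmb10 (1.97 ± 0.11), the catalytic subunits of the immunoproteasome. Over all tested genes 37% were called higher. The constitutive subunits whose places they take in the particle had log2 fold changes of -0.48 ± 0.08 (Psmb5), -0.41 ± 0.09 (Psmb6) and -0.69 ± 0.10 (Psmb7), none of which passed, and all 3 were called lower with size factors. Psmb8 was at 4.32, 9.51, 6.76 and 5.31 TPM and 37.6 to 70.8 TPM with a median of 52.7. Psmb5 was at 343, 310.4, 304 and 282 TPM and 198 to 256 TPM with a median of 221. The immunoproteasome subunits thus lay entirely above the contralateral range in injured muscle.

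Matrix genes rose almost as a block. Of 9 tested fibrillar collagens 8 were higher (median 3.52), and all 8 remained so with size factors. Col1a1, the main chain of scar collagen, was at 126.6, 363, 103.5 and 193 TPM contralaterally, where rat TS5.002 stood above the others. Injured muscles held 1429.6 to 4677 TPM with a median of 2111. The log2 fold change was 3.65 ± 0.29 (adjusted p = 5.40e-10), without overlap. Col3a1, its partner in early scar, rose by 3.70 ± 0.17 to 3185 ± 779 TPM and Col5a1, which sets fibril width, by 3.82 ± 0.14. All 20 genes of collagen processing and crosslinking were higher (median 2.46). Lox, which crosslinks collagen outside the cell, was at 2.06, 6.26, 1.95 and 3.07 TPM and 85 to 191 TPM with a median of 105.98, a rise of 4.80 ± 0.21. Serpinh1 (HSP47), the collagen chaperone, rose by 3.62 ± 0.16. Basement membrane genes were higher for 8 of 10, beside 37% of all tested genes, and Lamc1 and Col15a1 lost their calls with size factors. Lamb2, the laminin chain of the adult junction, was level at 0.01.

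Provisional matrix genes were higher for 17 of 18 (median 3.26). Fn1, fibronectin, was at 22.1, 39.2, 21.4 and 31.4 TPM and 425 to 887 TPM with a median of 546 and rose by 4.27 ± 0.17. Tnc, tenascin C, rose by 4.55 ± 0.23 and Thbs1, thrombospondin, which activates latent TGF-beta, by 5.15 ± 0.26. Cthrc1, a marker of activated fibroblasts, went from 1.08 ± 0.359 to 106.2 ± 38.6 TPM and Cd44, the hyaluronan receptor, from 4.29 ± 0.931 to 105.01 ± 20.6 TPM. Matrix metalloproteinases were higher for 11 of 14 (median 1.99). Mmp19 rose by 4.92 ± 0.15 and Mmp14, the membrane enzyme that activates others, by 3.53 ± 0.20. Mmp12, the macrophage elastase, was listed at 0 in 3 contralateral muscles and at 0.04 TPM in the fourth, and ran from 8.48 to 47.3 TPM with a median of 18 after injury. Their inhibitor Timp1 was at 5.1, 9.74, 2.83 and 6.68 TPM and 359 to 949 TPM with a median of 497. Its rise of 6.31 ± 0.26 (adjusted p = 1.17e-14) contrasted with Timp4, which fell (-1.11), and Timp3, which did not pass (-0.47). With size factors Timp3 was called lower (-1.20).

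Fibroblast markers divided. Of 16 tested, 10 were higher, 1 lower and 5 did not pass, beside 37% higher and 6.83% lower of all tested genes. Dcn (0.45), Col15a1 (0.32) and Ly6c (0.38) lost their higher calls with size factors. Pdgfra, the receptor that defines fibroadipogenic progenitors, was at 4.89, 5.89, 3.57 and 6.33 TPM and 49 to 80.8 TPM with a median of 61.2. It rose by 3.35 ± 0.13 (adjusted p = 3.71e-15). Lum, a small proteoglycan, rose by 4.97 ± 0.17 and Thy1 by 4.67 ± 0.21. Gsn, gelsolin, fell from 867 ± 309.9 to 220.4 ± 80.2 TPM (-1.98 ± 0.24). The 5 members of the list that did not pass included Pi16 (0.60), Dpp4 (0.34), Osr1 (0.05) and Smoc2 (0.21).

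Among ligands, receptors and inhibitors of the TGF-beta family 11 of 25 were higher and 2 lower, shares near the 37% and 6.83% of all tested genes. With size factors 7 were higher and 4 lower, and the median of 0.52 turned to -0.19. The ligand Tgfb1 was at 6.09, 6.29, 4.4 and 5.68 TPM and 61.9 to 113 TPM with a median of 100.3 and rose by 3.87 ± 0.14 (adjusted p = 2.19e-15), whereas Tgfb2 (0.17) and Tgfb3 (0.23) did not pass. The receptors Tgfbr1 (2.14) and Tgfbr2 (1.90) rose. Mstn (myostatin), the muscle ligand that restrains growth, was at 37.3, 55.6, 68.1 and 61.4 TPM contralaterally and only 1.74 to 13.3 TPM with a median of 3.06 after injury. It fell, with a log2 fold change of -3.51 ± 0.30 (adjusted p = 1.63e-09), while its inhibitor Fst, follistatin, rose by 1.82 ± 0.17. Smad3, a signal carrier, fell (-1.06 ± 0.19), though not past the fold limit without the contralateral muscle of rat TS5.005 (-0.85). Of 22 tested growth factor genes 12 were higher and 1 lower. With size factors 5 were higher, at the 22.7% of all tested genes, and 1 lower. Igf1, which promotes muscle growth, was at 7.85, 8.47, 8.86 and 10.5 TPM and 57.6 to 90.0 TPM with a median of 76.7, a rise of 2.96 ± 0.10. Gdf15, a stress hormone, rose by 3.52 ± 0.17, and Fgf2 was the gene that fell (-1.19).

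Adult fibre genes fell. Of 25 tested contractile genes 22 were called lower, beside 6.83% of all tested genes, and none higher, with a median of -2.07. In 20 of them every injured muscle lay below every contralateral one, as it did for 13.2% of all tested genes. Their summed level was 236800 to 275600 TPM in contralateral muscle and 45520 to 137400 TPM in injured muscle. Myh4, the myosin of the fastest fibres, was at 12234, 17031, 21707 and 20794 TPM. Injured muscles held 902 to 4868 TPM with a median of 1861, and the highest of them was rat TS5.098. The log2 fold change was -3.23 ± 0.31 (adjusted p = 7.90e-09). Myh1, the next fastest, fell less, at -1.74 ± 0.34, and its sides overlapped. Myh2, of fast oxidative fibres, fell (-2.50 ± 0.46), as did Myh7, of slow fibres (-2.19 ± 0.57, with overlap). Tnni1, the slow troponin I, was at 206 ± 48.9 and 252 ± 97.6 TPM and did not pass (0.24 ± 0.28). Acta1 and Ckm fell at -1.54 ± 0.20 and -2.28 ± 0.24.

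Among the genes with the lowest fold changes, Mylk2, the skeletal myosin light chain kinase, was at 1058, 1062, 1058 and 1201 TPM and 35.6 to 262 TPM with a median of 70.7 (-3.89 ± 0.33). Pvalb, parvalbumin, the calcium buffer of fast relaxation, went from 10497 ± 1894 to 966 ± 499 TPM (-3.58 ± 0.32). Myl2, the slow regulatory light chain, fell at -3.79 ± 0.54, Atp1b2, a sodium pump subunit, at -3.38 ± 0.26, and Gpd1, of the glycerol phosphate shuttle, at -3.44 ± 0.35. Aqp4, the water channel of fast fibres, was at 16, 25.6, 45.8 and 33.7 TPM and 0.47 to 6.61 TPM with a median of 1.57 and fell (-3.45 ± 0.31). Ky, a sarcomeric protein, fell at -3.38 ± 0.34. Also at this end were Myoc, myocilin (-4.19 ± 0.41), and the unnamed loci RGD1565323 (-4.29 ± 0.54) and LOC100910189 (-3.55 ± 0.39). At the upper end stood Akr1b8, an aldo-keto reductase (6.56 ± 0.21), and Tnnt2, the cardiac and embryonic troponin T, at 2.66, 1.88, 2.14 and 2.71 TPM contralaterally and 182 to 468 TPM with a median of 293 after injury (6.35 ± 0.22).

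Calcium handling genes fell for 8 of 11 and rose for 2, beside 6.83% and 37% of all tested genes. Atp2a1, the fast calcium pump, was at 12528, 14503, 15254 and 15388 TPM and 1206 to 5100.3 TPM with a median of 1914 and fell (-2.81 ± 0.26). Sln (sarcolipin), the small peptide that uncouples this pump, moved the other way. It was at 283, 191, 232 and 184 TPM contralaterally and 1874 to 4334 TPM with a median of 3138 in injured muscle, a rise of 3.74 ± 0.22 (adjusted p = 3.89e-12). The calsequestrins, which hold calcium in the store, also parted, with the fast form Casq1 falling (-2.23 ± 0.28) and the slow and cardiac form Casq2 rising by 2.33 ± 0.27.

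Of 10 stretch-response genes 3 were higher, beside 37% of all tested genes, and 3 lower, beside 6.83%, and with size factors 4 were lower. Ankrd1, a nuclear and sarcomeric ankyrin repeat protein, was at 48, 23, 39.8 and 16.7 TPM contralaterally and 613 to 1726 TPM with a median of 1117 after injury. It rose by 5.0978 ± 0.28 (adjusted p = 1.28e-12). Csrp3, a stretch sensor of the Z-disc, rose by 3.26 ± 0.24 and Ankrd2 by 2.34 ± 0.27. Their relative Ankrd23 fell (-1.51 ± 0.20), which sets it apart from Ankrd1 and Ankrd2 within one gene family.

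The energy genes of adult muscle fell, in part. Of 38 tested nuclear subunits of oxidative phosphorylation 19 were lower, none was higher and 36 did not overlap (all injured below), with a median of -0.99. Over all tested genes 6.83% were lower and 13.2% lay below without overlap. With size factors all 38 were lower, beside 18.3%. Cox8b, a muscle form of cytochrome oxidase subunit 8, went from 3120.2 ± 142.2 to 731 ± 211 TPM (-2.15 ± 0.18), while the ubiquitous Cox4i1 did not pass (-0.70 ± 0.08). Ndufs3, of complex I, fell (-1.34 ± 0.13). Fatty acid oxidation genes were lower for 8 of 24, beside 6.83% of all tested genes, and for 21 with size factors, beside 18.3%. Acadm, the medium-chain dehydrogenase, fell at -1.79 ± 0.17, and Ppara, the nuclear receptor for fatty acids, at -1.50 ± 0.21. Ppargc1a, the coactivator of mitochondrial genes that exercise is known to induce, was at 10, 9.4, 11.3 and 11.38 TPM and 1.21 to 5.27 TPM with a median of 2.43 (-1.63 ± 0.21).

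Glycolysis and glycogen genes fell for 17 of 32, beside 6.83% of all tested genes, and rose for 8, beside 37%. In several pairs of isoforms, picked as examples, the members moved apart. Pfkm, the muscle phosphofructokinase, was at 2377, 2416, 2178 and 2306 TPM contralaterally and 213 to 781 TPM with a median of 297 in injured muscle (-2.87 ± 0.22). The liver form Pfkl rose by 2.70 ± 0.15 and the platelet form Pfkp by 2.98 ± 0.14. Muscle phosphoglycerate mutase Pgam2 fell (-2.41 ± 0.25) where the ubiquitous Pgam1 rose by 2.90 ± 0.14. Muscle enolase Eno3 fell (-2.53 ± 0.25) where Eno1 rose by 2.33 ± 0.10. Muscle glycogen phosphorylase Pygm fell (-2.86 ± 0.25) where the liver form Pygl rose by 3.30 ± 0.13. Of the glucose transporters, the insulin-responsive Slc2a4 (GLUT4) fell (-2.41 ± 0.34) and the ubiquitous Slc2a1 (GLUT1) rose by 3.29 ± 0.23. On the TPM scale the muscle forms remained the more abundant for phosphofructokinase, with 338 ± 142.01 TPM of Pfkm beside 39.5 ± 9.35 TPM of Pfkl in injured muscle. For glucose transport the mean levels drew near, at 60.3 ± 34.3 TPM of Slc2a4 and 34.2 ± 13.4 TPM of Slc2a1. Hk1 rose by 2.4997 ± 0.11 and Hk2, the muscle hexokinase, did not pass (-0.07).

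**Figure D3:**
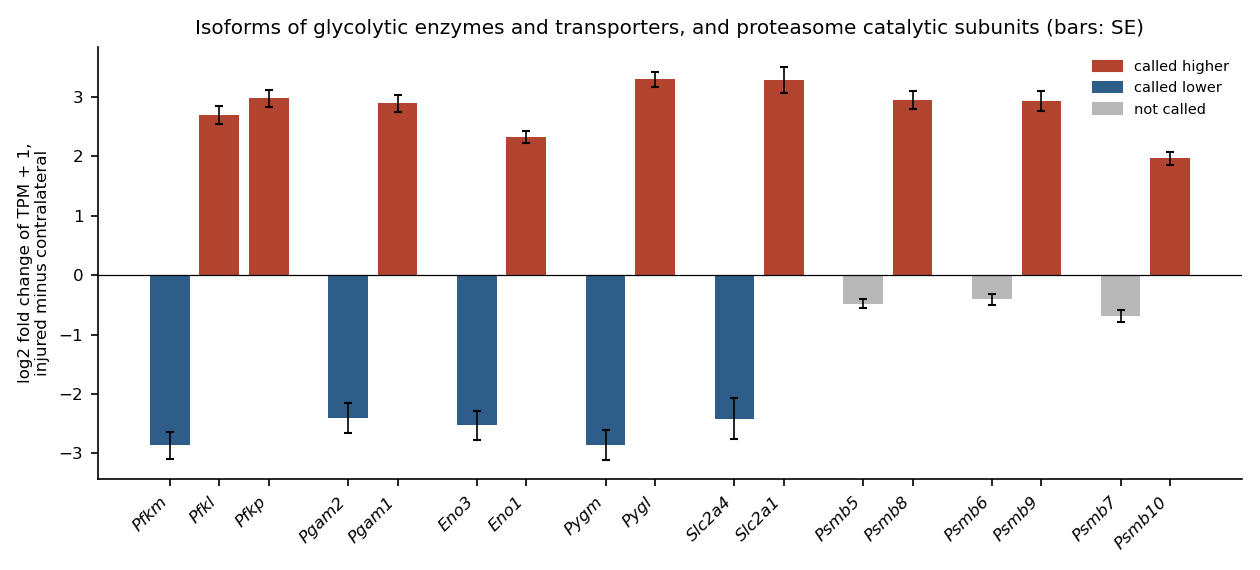
Log2 fold change of TPM + 1 (injured minus contralateral, bars are standard errors) for muscle and other isoforms of glycolytic enzymes and glucose transporters, and for constitutive and immunoproteasome catalytic subunits. Pfkm, Pgam2, Eno3, Pygm and Slc2a4 lie below 0 and their counterparts above it, and Psmb8, Psmb9 and Psmb10 lie above 0 while Psmb5, Psmb6 and Psmb7 did not pass.

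Of 22 tested satellite cell and differentiation genes 14 were higher (median 1.51), beside 37% of all tested genes, and none lower, beside 6.83%. Pax7, which marks satellite cells, was at 0.97, 0.58, 1.1 and 1.42 TPM and 1.31 to 4.01 TPM with a median of 3.01, and its log2 fold change of 0.88 ± 0.19 did not pass the fold limit (adjusted p = 2.22e-04), although it did in the paired fit with rat as a fixed block (1.002). Myf5 rose by 1.61 ± 0.23 and lost its call with size factors (0.98). Myod1 was at 45.9, 54.3, 31.6 and 33.3 TPM and 36.8 to 106.3 TPM with a median of 73.8, with overlap, and did not pass (0.75 ± 0.22) outside that same paired fit (1.03). Myf6 did not pass (0.23 ± 0.20). Myog, which drives terminal differentiation, was at 55.1, 87.1, 81.7 and 33.4 TPM and 205 to 538 TPM with a median of 315. It rose by 2.38 ± 0.26 (adjusted p = 4.25e-08), without overlap. Tmem8c (myomaker), the membrane protein needed for fusion, was at 1.14, 0.41, 0.68 and 0.31 TPM and 10.4 to 58.2 TPM with a median of 23.6 and rose by 4.07 ± 0.30.

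Embryonic sarcomere genes were not alike. Actc1, the cardiac and embryonic actin, rose by 3.92 ± 0.23, from 25.4 ± 4.7 to 414 ± 152 TPM. Myh3, the embryonic myosin, was at 13.1, 6.8, 7.82 and 13.8 TPM and 13.4 to 53.5 TPM with a median of 32.9, so that the sides met, and its rise of 1.41 ± 0.31 (adjusted p = 3.36e-04) was lost with size factors (0.71). Myh8, the neonatal myosin, was at 6.38, 3.91, 5.95 and 7.91 TPM and 1.51 to 6.59 TPM with a median of 3.4. It did not pass (-0.65 ± 0.23) and was called lower with size factors (-1.28). Cd82, a tetraspanin of satellite cells, rose by 2.95 ± 0.19.

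Genes that respond to lost nerve contact were higher for 7 of 17 and lower for 2, shares near the 37% and 6.83% of all tested genes. With size factors 6 were higher and 5 lower. Chrng, the fetal gamma subunit of the acetylcholine receptor, was at 0.82, 0.04, 0.23 and 0.18 TPM contralaterally and 16 to 68.9 TPM with a median of 28.8 after injury. It rose by 4.66 ± 0.29 (adjusted p = 7.48e-12). The adult subunit Chrne did not pass (-0.81) and was called lower only with size factors (-1.50). Chrna1 rose by 2.92 ± 0.32, Ncam1 by 3.47 ± 0.20 and Runx1 by 3.10 ± 0.19. Scn4a, the sodium channel of adult fibres, fell (-1.95 ± 0.20). Ache, acetylcholinesterase, fell (-1.78 ± 0.27). Some of these genes also mark regenerating fibres, and which process moved them was not tested. Schwann cell markers were higher for 2 of 9 tested, Erbb3 (4.06 ± 0.14) and Pmp22 (1.99), and lower for 1, beside 37% and 6.83% of all tested genes.

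Of 17 tested atrophy ligases and regulators 2 were higher, Ctsl (3.61) and Fbxo30 (1.27, lost with size factors), and 5 lower, Mstn among them. With size factors 1 was higher and 8 were lower. Over all tested genes 37% were higher and 6.83% lower, or 22.7% and 18.3% with size factors. Fbxo32 (atrogin-1) was at 447, 529, 551 and 263 TPM and 93.3 to 303 TPM with a median of 184 and was called lower (-1.24 ± 0.30), with overlap. Trim63 (MuRF1) did not pass (-0.55 ± 0.29, adjusted p = 0.087) and was lower with size factors. Klf15, a glucocorticoid target, fell (-2.31 ± 0.19).

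Genes that contraction is known to induce went in opposite directions, 16 of 25 higher and 3 lower, beside 37% and 6.83% of all tested genes. With size factors 11 were higher and 3 lower. The 3 that fell are known from exercised fibres. Nr4a1, an orphan receptor induced by exercise, was at 92.3, 89.8, 54.3 and 125.4 TPM contralaterally and 7.77 to 22.5 TPM with a median of 12.5 in injured muscle (-2.64 ± 0.21, adjusted p = 5.47e-10). Ostn (musclin), a secreted peptide of working muscle, was at 10.3, 15.7, 25.9 and 26.5 TPM and 0.35 to 4.81 TPM with a median of 1.51 and fell (-2.98 ± 0.29). The third was Ppargc1a, given above. Not all such genes fell, since Il6, given above, and Angptl4 (3.59 ± 0.36) rose and Nr4a3 did not pass (0.61). Immediate early genes common to many cells rose, among them Fos (2.35 ± 0.56) and Egr1 (2.51 ± 0.38), yet both overlapped between the sides, since the contralateral muscle of rat TS5.006 stood high at 68.7 TPM for Fos and 26 TPM for Egr1. Pdk4, which spares glucose, did not pass (0.04 ± 0.26). Of 14 clock genes 1 was called, Nr1d1 (REV-ERB alpha), which fell (-1.70 ± 0.17), beside 6.83% of all tested genes. With size factors 4 were lower, Nr1d2, Per1 and Per3 being the others, beside 18.3%.

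Dividing cells left a clear trace. Of 39 tested cell cycle and mitosis genes 36 were higher (median 3.71), 35 of them also with size factors, and in 38 the injured muscles all lay above, as they did for 53.5% of all tested genes. Cdk1, the kinase that starts mitosis, was at 0.96, 0.95, 0.42 and 0.87 TPM and 59.5 to 103.4 TPM with a median of 91.7. It rose by 5.62 ± 0.14 (adjusted p = 2.71e-17). Rrm2, which makes DNA precursors, rose by 5.76 ± 0.15, Ccnb2, a mitotic cyclin, by 4.75 ± 0.12, Top2a, which untangles chromosomes, by 4.64 ± 0.15 and Mki67, the proliferation marker, by 4.46 ± 0.15. Mki67 was below 0.5 TPM in every contralateral muscle. Ccnd1, the cyclin of cell cycle entry, rose by 3.12 ± 0.15. Aurka missed the fold limit at 0.99 ± 0.10. It passed in the paired fit with rat as a fixed block (1.07) and in 4 of the fits that left out 1 muscle (1.01 to 1.08).

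Since these genes moved together, their promoters were read from the RefSeq windows of GRCr8, 250 bases before to 50 after each start. Of the 36 higher genes 26 had a window. Searched on both strands, CCAAT (reversed ATTGG) occurred in 21 (80.8%) and TTTGAA (reversed TTCAAA) in 16 (61.5%), with 13 (50%) holding both. The strings share no more than an end base where they meet. Among 8154 tested genes with a window the shares were 37.7%, 11.5% and 4.73%, and among all 27457 windows 37.7%, 18.1% and 7.25%. The letters are those of the CCAAT box bound by NF-Y and of the CHR element, both known from G2 and M phase promoters, and a match is a string in a window, not a binding site. The windows of Cdk1 (chr20:19265043-19265342, plus strand) and Top2a (chr10:84473044-84473343, minus strand) are shown, 5′ to 3′, because each holds both strings, which stand in capitals.
Cdk1: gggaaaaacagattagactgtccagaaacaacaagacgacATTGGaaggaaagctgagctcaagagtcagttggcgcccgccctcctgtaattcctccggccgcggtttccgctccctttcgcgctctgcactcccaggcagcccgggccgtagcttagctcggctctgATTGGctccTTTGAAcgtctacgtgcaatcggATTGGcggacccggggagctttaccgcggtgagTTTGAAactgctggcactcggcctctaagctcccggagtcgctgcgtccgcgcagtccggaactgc
Top2a: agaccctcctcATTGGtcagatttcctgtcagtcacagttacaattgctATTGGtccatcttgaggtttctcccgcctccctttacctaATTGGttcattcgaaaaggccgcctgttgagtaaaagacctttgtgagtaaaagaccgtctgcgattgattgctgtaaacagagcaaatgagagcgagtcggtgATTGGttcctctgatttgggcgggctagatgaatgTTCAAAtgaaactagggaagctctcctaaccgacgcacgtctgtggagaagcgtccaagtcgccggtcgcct

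Of 16 endothelial markers 9 were higher (median 1.23), beside 37% of all tested genes, and 3 with size factors, beside 22.7%. Pecam1, an adhesion molecule of endothelium, was at 24.4, 30.8, 27.4 and 24.2 TPM and 51.8 to 106.2 TPM with a median of 75, a rise of 1.47 ± 0.14 that was lost with size factors (0.74). Of 14 smooth muscle and pericyte markers 7 were higher and 2 lower, and with size factors 3 and 2, near the 22.7% and 18.3% of all tested genes. Acta2, which myofibroblasts share with smooth muscle, rose by 2.36 ± 0.16, whereas Myh11, the myosin of mature smooth muscle, did not pass (0.04 ± 0.21). Fat markers were 2 higher, 2 lower and 5 not passing, beside 37% higher and 6.83% lower of all tested genes. With size factors 1 was higher and 5 lower, beside 22.7% and 18.3%. Adipoq, adiponectin, was called lower (-1.46 ± 0.60) on overlapping values of 4.83, 19.4, 1.31 and 9.29 TPM and 0.35 to 11.8 TPM with a median of 0.897, a call lost without the contralateral muscle of rat TS5.002 (adjusted p = 0.179) or TS5.006 (adjusted p = 0.107). Tendon and cartilage markers were 3 higher and 1 lower of 9, near the shares of all tested genes, and with size factors 1 was higher and 2 lower. Tnmd, tenomodulin, ranged from 0.22 to 52.9 TPM with a median of 5.89 among injured muscles (-0.31 ± 0.77, not passing). Red cell genes varied widely within both sides. None of 7 erythroid genes passed, and their summed level was 1672 to 70710 TPM in injured and 5039 to 50590 TPM in contralateral muscle, with Hba1 from 708 to 28012 TPM with a median of 4271 after injury.

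Of 39 tested ribosomal protein genes 17 were higher (median 0.98), a share near the 37% of all tested genes. With size factors 1 was, beside 22.7%, with a median of 0.23. That gene was Rpl3, which went from 157 ± 40.5 to 1306 ± 128.4 TPM (3.07 ± 0.12). Rplp0 rose by 1.16 ± 0.09 and lost its call with size factors (0.41). Heat shock and endoplasmic reticulum stress genes were higher for 16 of 28 and lower for 1, beside 37% and 6.83% of all tested genes, and with size factors for 12 and 3. Hspa5 (BiP), the main chaperone of the endoplasmic reticulum, rose by 1.58 ± 0.13 and lost its call with size factors (0.83). Asns, asparagine synthetase, rose by 3.49 ± 0.16 and Chac1, which breaks down glutathione, fell (-2.43 ± 0.20), although both are known targets of ATF4.

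**Figure D4:**
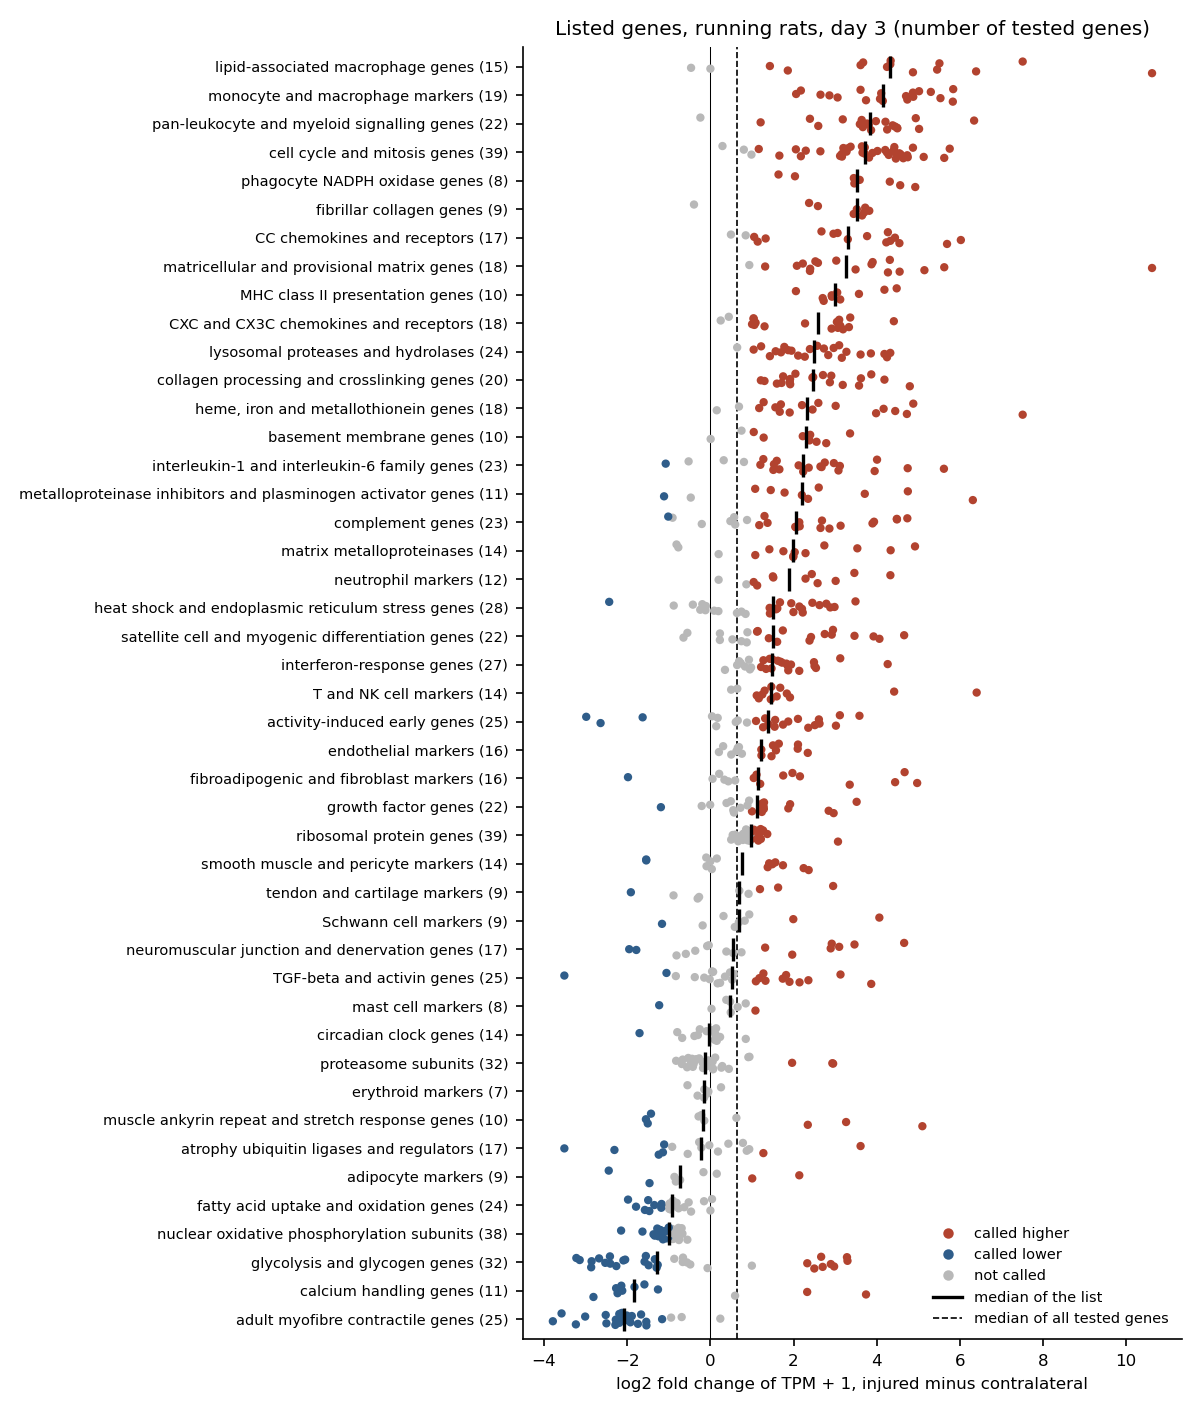
Log2 fold change of TPM + 1 (injured minus contralateral) of every tested gene of the listed groups, 1 row per group with the number tested, with marks for the median of each group and of all tested genes. Macrophage, cell cycle and collagen groups lie right of the overall median of 0.65 and contractile and oxidative phosphorylation groups left of 0.

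Of the tested microRNA precursor entries 33 were called higher, 3 lower and 91 neither, a called share of 28.3% against 43.8% of all tested genes. With size factors 25 were higher and 10 lower. In 11 of the called entries the sides did not overlap, 8 above and 3 below, where 53.5% of all tested genes lay above and 13.2% below without overlap, and these were singled out after their values were seen. An entry holds reads assigned to the precursor, so its arms and any overlapping gene cannot be told apart. Mature forms of 6 of the entries described next are shown from RefSeq (GRCr8), 5′ to 3′ with the seed (bases 2 to 8) in capitals, so that their targeting letters can be read beside the levels of their loci.
rno-miR-223-3p (chrX:65151450-65151470, plus strand): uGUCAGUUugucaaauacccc
rno-miR-142-3p (chr10:73055155-73055177, plus strand): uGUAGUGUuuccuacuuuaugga
rno-miR-21-5p (chr10:71902653-71902674, minus strand): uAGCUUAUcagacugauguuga
rno-miR-24-3p (chr19:40859481-40859502, minus strand): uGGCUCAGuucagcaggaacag
rno-miR-25-3p (chr12:22156652-22156673, minus strand): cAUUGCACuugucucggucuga
rno-miR-196b-5p (chr4:82661149-82661170, minus strand): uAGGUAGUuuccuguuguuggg

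Mir223, known from granulocytes and monocytes, was at 10.8, 5.23, 4.38 and 13.5 TPM contralaterally and 70.5 to 220.1 TPM with a median of 128.2 in injured muscle, a rise of 3.88 ± 0.27 (adjusted p = 4.59e-11). Mir142, known from all blood lineages, was at 0, 4.71, 0 and 1.41 TPM and 9.45 to 44.2 TPM with a median of 29.8 and rose by 3.78 ± 0.39. Mir21, known from fibrosis, was at 12, 0, 4.18 and 1.38 TPM and 17.2 to 74.2 TPM with a median of 35.3 and rose by 3.36 ± 0.47. Mir24-2 rose by 3.72 ± 0.46. Contralateral values of Mir142, Mir21 and Mir24-2 included 0, so these rises are not precise. Mir25 rose by 1.75 ± 0.28. Mir25 lies within the gene Mcm7, which itself did not pass the fold limit (0.80 ± 0.11). The seed of miR-25-3p, AUUGCAC, is shared by miR-92a-3p, whose precursor entry Mir92a1 was also called higher (1.16, lost with size factors). Mir3120, which overlaps Dnm3 and Mir214, rose by 4.12 ± 0.34, and without strand its reads cannot be told from those of Mir214. Of the 3 lower entries, Mir3582 was at 322, 303, 293 and 219.8 TPM and 8.55 to 104.8 TPM with a median of 40.05 and fell (-2.81 ± 0.44), and it overlaps Mir133a1 and Mib1, so its reads cannot be told from theirs. Mir3556b was at 219, 434, 178 and 124 TPM and 28.4 to 115 TPM with a median of 69.5 (-1.64 ± 0.34). Mir196b was at 37.1, 33.5, 35.9 and 27.4 TPM and 3.81 to 25.9 TPM with a median of 10.7 and fell (-1.60 ± 0.28).

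The repair arms did not separate at day 3. In injured muscle 10709 genes were tested between 6 muscles with the minced graft and 8 without repair, and limma called 0 (0%), with 170 at an unadjusted p under 0.05. The lowest adjusted p was 0.31. The difference of the injury effect between the arms, tested over 10873 genes, also gave 0 called genes (0%), with 880 at an unadjusted p under 0.05, and here each arm had 2 contralateral muscles. A call needed both a change beyond 1 on the log2 scale and an adjusted p under 0.05. Data were simulated for the graft comparison with 200 changed genes and errors drawn independently for each gene. There 97% of genes changed by 1.5 on the log2 scale and 100% of those changed by 2.5 were recovered. Smaller changes, fewer changed genes and the second test were not simulated, so the 0 calls do not exclude a graft effect. Leaving out the contralateral muscle of rat TS5.005 gave 6 calls in the second test and leaving out that of rat TS5.006 gave 4, and without the grafted muscle of rat TS5.104 the first test gave 1.

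Running and not running rats were compared next, by the difference of the injury effect at day 3. The second set held 14 muscles of 10 rats, 10 injured and 4 contralateral. Of 11010 genes 17 (0.154%) differed in their injury effect, with a fold change (injured minus contralateral) that was higher in running rats for 2 (0.0182%) and lower for 15. The test is of the signed fold change, not of its size. Of the 17, 8 are named here outside the naming rule, after their values were seen, Slco4a1 among them. Slco4a1, an organic anion transporter, had the lowest adjusted p (0.000131). It was at 5.1, 4.29, 7.21 and 4.66 TPM in the contralateral muscles of running rats and at 1, 0.85, 1.61 and 1.93 TPM in those of not running rats, without overlap. Injured muscles ran from 2.12 to 4.36 TPM in running and 2.53 to 4.83 TPM in not running rats. The fold change was -0.54 in running and 0.98 in not running rats, a difference of -1.52 ± 0.20, and the groups that stood apart were the contralateral ones.

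The same held for Cdkn1a, Gadd45a and Myog. Cdkn1a (p21), the inhibitor that stops the cell cycle, was at 22.6, 32.2, 42.1 and 14.2 TPM in running and 5.39, 9.39, 7.69 and 8.42 TPM in not running contralateral muscles. After injury its medians were 246 and 300 TPM. The difference was -1.93 ± 0.35 (adjusted p = 0.00759). Gadd45a, a partner of p21 in growth arrest and a denervation gene, was at 200, 170, 159 and 94.2 TPM against 41.6, 55.4, 43.4 and 63 TPM contralaterally, a difference of -1.93 ± 0.34 (adjusted p = 0.00759). Myog was at 55.1, 87.1, 81.7 and 33.4 TPM against 18.6, 19.6, 24.3 and 19.4 TPM, a difference of -1.87 ± 0.37 (adjusted p = 0.0172), which was lost without the contralateral muscle of rat TS5.002 (adjusted p = 0.0647). Contralateral muscles of running rats lay wholly above those of not running rats for each of these genes.

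Further genes with a lower fold change in running rats were Slc51a, a steroid transporter (-2.14 ± 0.43, adjusted p = 0.0187), Bid, a death-promoting BCL2 relative (-1.64 ± 0.27, adjusted p = 0.00483), Cd82 (-1.23), Lipg (-1.32), Emb (-1.28) and Tal2 (-1.09). Slc51a, Bid, Cd82 and Emb had a positive fold change in both sets of rats, at 0.76, 1.06, 2.95 and 3.09 in running and 2.93, 2.68, 4.19 and 4.36 in not running rats. Lipg and Tal2 had opposite signs, at -0.69 and -0.32 in running and 0.64 and 0.78 in not running rats, and Tmem100 was the more negative in running rats (-1.85 against -0.48). Slc51a lost its call without the contralateral muscle of running rat TS5.001 (adjusted p = 0.104) or of not running rat TS5.014 (adjusted p = 0.0757). Over 32 fits that each left out 1 muscle, Slco4a1, Cdkn1a, Gadd45a and Bid kept their calls in all, and 12 of the rest lost theirs at least once, from 1 fit (Myog, Cd82 and Irs2) to 21 fits (Cidea). The paired fit, with rat as a random replicate block, gave 12 calls in place of 17, and Tmem100, Tuba4a, Ttc9 (adjusted p = 0.0593 each) and Cidea (adjusted p = 0.069) were among those lost. Irs2, an insulin signalling adaptor, differed in the other direction (1.16 ± 0.21), with a fold change of 0.55 in running and -0.61 in not running rats and contralateral values of 3.14, 3.88, 3.12 and 4.18 TPM in running and 5.58, 11.8, 7.41 and 13.9 TPM in not running rats. Slc25a30, a mitochondrial carrier, differed by 1.14 ± 0.22, with a fold change of 0.27 in running and -0.85 in not running rats.

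Taken side by side, the contralateral difference (running minus not running) ranged from -1.15 to 1.76 over these 17 genes and the injured difference from -0.39 to 0.17. Neither side alone called any gene of the 17, with adjusted p of 0.0886 or more in contralateral muscle. The contralateral difference was 1.56 for Gadd45a, 1.64 for Cdkn1a, 1.52 for Myog and 1.43 for Slco4a1. On the injured side the same genes differed by -0.34, -0.29, -0.35 and -0.08. Leaving out 1 muscle moved the count from 10 (without a contralateral muscle of not running rat TS5.013 or TS5.014) to 38 (without the contralateral muscle of rat TS5.006), and keeping all libraries left 1.

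**Figure D5:**
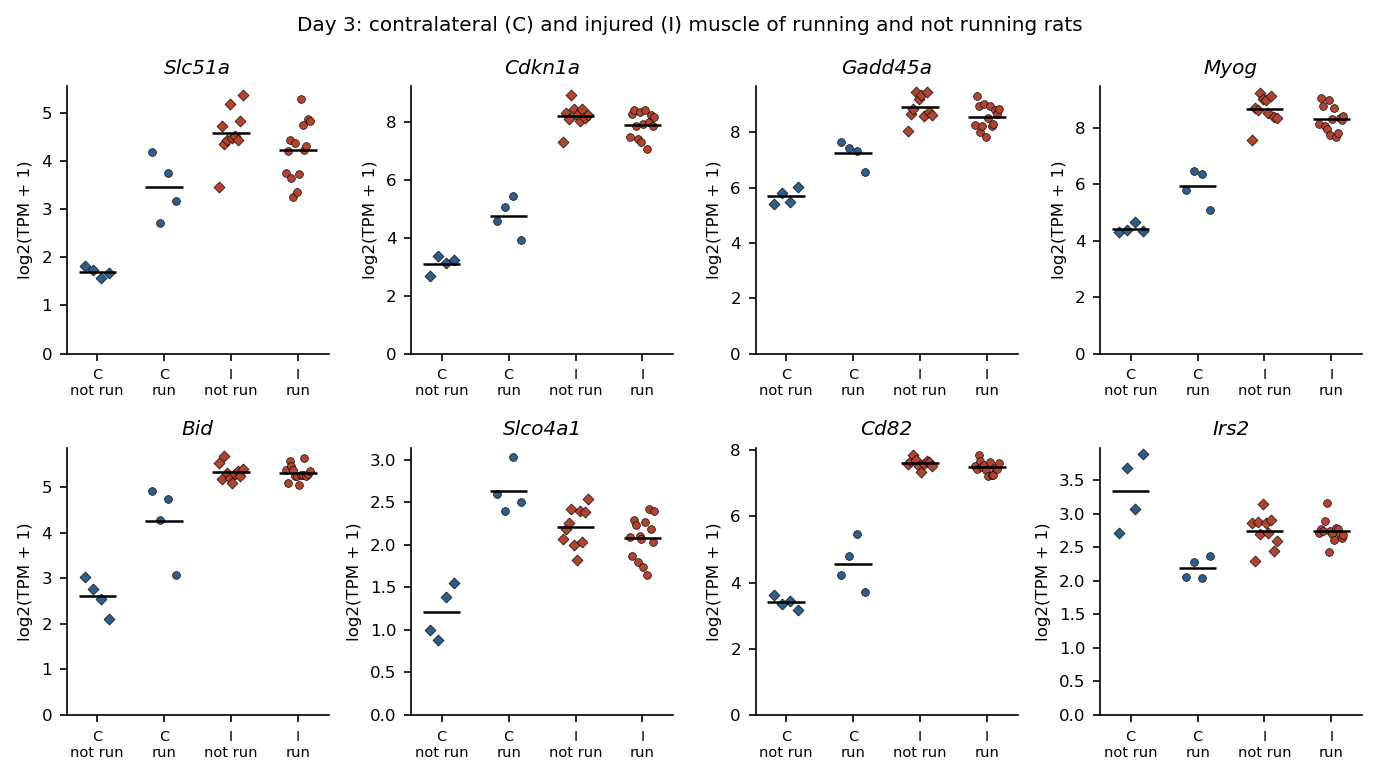
Log2(TPM + 1) of 8 genes at day 3 in contralateral (C) and injured (I) muscle of not running and running rats, 1 point per muscle. Slco4a1, Cdkn1a, Gadd45a and Myog lie higher in contralateral muscle of running rats, Irs2 lies lower there, and the injured muscles overlap.

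Against day 7, the injury effect of running rats differed for 911 of 11186 genes (8.14%), 407 with a higher value at day 3 (3.64%) and 504 with a lower one (4.51%). The split was 493 and 356 with size factors, and 390 and 226 with all libraries kept. Day 7 had 8 injured and 4 contralateral muscles, all from rats TS5.003 to TS5.032. Day 3 also held injured muscles of rats TS5.097 to TS5.104, so day and range of rat numbers cannot be fully told apart. On the lists, a higher fold change at day 3 was called for 29 of 39 tested cell cycle genes, 12 of 22 pan-leukocyte genes and 9 of 19 macrophage genes, and for 29, 14 and 11 of them with size factors. Cd163 was at 159 ± 34.4 TPM in injured muscle at day 3 and 17.3 ± 3.8 TPM at day 7, a difference of effects of 2.72 ± 0.30. Cd8a was at 131.4 ± 35 and 18.4 ± 5.75 TPM (2.71 ± 0.30). Gal, galanin, a neuropeptide of injured nerve, was at 24.5 ± 7.55 and 2.11 ± 0.831 TPM (3.02 ± 0.29). Aldh1a2, which makes retinoic acid (2.53), and Glrx, glutaredoxin (2.52), completed the 5 highest.

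At the other end stood the developmental myosins. Myh8 was at 3.6 ± 1.45 TPM in injured muscle at day 3 and 186 ± 76.6 TPM at day 7, while contralateral muscle held 6.04 ± 1.65 and 3.34 ± 0.733 TPM. The effects differed by -5.97 ± 0.39 (adjusted p = 2.43e-11). Myh3 was at 30.4 ± 12 and 222 ± 76.9 TPM, a difference of -4.67 ± 0.46. On the satellite cell and differentiation list 10 of 22 genes had a lower fold change at day 3 (9 with size factors), beside 4.51% of all tested genes, and none a higher one. Scd, stearoyl-CoA desaturase, was at 6.36 ± 4.39 and 179 ± 69.9 TPM (-4.07 ± 0.50). Mir6323, a precursor entry listed at 0 in contralateral muscle on both days, and Tnmd (-3.96 ± 1.198) were the other low ends, and Tnmd varied widely on both days and lost its call without the day 7 contralateral muscle of rat TS5.004 (adjusted p = 0.0545). A lower fold change at day 3 was also called for 9 of 17 genes of the neuromuscular junction list and 6 of 10 of the tendon list, the same numbers as with size factors. Within day 3 injured muscle Tnmd was also lower in rats TS5.097 to TS5.104 than in the other rats (log2 difference -2.45). No injured muscle of that range was sampled at day 7, and the part of the day difference due to it was not tested.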

How the data were processed

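Total RNA of rat tibialis anterior muscle was sequenced as TruSeq libraries. The authors pseudo-aligned the reads with Kallisto at default settings to rat genome build 6.0 and deposited TPM, a length-corrected share of all transcripts, per gene symbol. Strandedness is not given in the sources used here. The table held 16182 entries in alphabetical order, the last incomplete, which left 16181 symbols up to Tubb3. Read depth cannot be had from TPM, and counting error is therefore not given. The study's methods test read counts with a count model, for which TPM are unsuitable, and limma took its place here.

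Libraries were joined to labels by name, and 9 of the series, none of them from running rats at day 3, were left unassigned, 8 because title and labels disagreed and 1 because its day differed from that of the other libraries of its rat. Libraries with fewer than 7000 symbols above 1 TPM were dropped and libraries of one muscle were averaged (lowest correlation between such libraries 0.9973). Testing was limited to genes with a mean above 1 TPM in any group compared. Linear models of log2(TPM + 1), with repair as covariate, were moderated with a trend on mean level (limma 3.58.1, R 4.3.3), and p-values were adjusted by Benjamini-Hochberg over every tested gene. The log2 scale with a pseudocount of 1 understates changes of low genes. Calls needed an adjusted p under 0.05 and a log2 fold change beyond 1, the limits of the study's methods. The injury effect was also compared between running and not running rats, between day 3 and day 7, and between repair arms.

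Libraries of the same rat share an animal. The deviations of the muscles of rats TS5.001, TS5.002, TS5.005 and TS5.006 from their side means correlated at 0.0439, 0.0569, 0.209 and 0.174, and rat was used as a block (statmod 1.5.0) in alternatives. Alternatives covered the pseudocount, the filter, size factors (the median of ratios to the gene-wise geometric mean), dropped libraries, the trend, the repair arms and each muscle left out. In simulated data for the injury comparison 87% of genes changed by 1.5 on the log2 scale and 92% of those changed by 2.5 were recovered, and 2 unchanged genes were called. The 46 gene lists hold 879 symbols, of which 839 are in the table and 803 were tested. Named genes are members of the lists, the 12 highest and 12 lowest called genes without overlap, and the 5 highest and 5 lowest of each other comparison. A few genes that the rule names are not reported here. The members, lists and tests were chosen with earlier results of these data known. Sequences were taken from RefSeq tables of build GRCr8, by symbol, and figures were drawn with matplotlib 3.10.9 in Python 3.11.15.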

Additional observations from a re-analysis of the deposited data

Results flagged for a closer look

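Single muscles were compared with the rest of their group for 178 named genes, in the 8 injured muscles without repair, the 6 with the graft and the 4 contralateral muscles. Dixon's ratio at the 95% level set apart 64 of 534 groups (12%), where chance flags about 1 in 20 of independent, normally distributed groups. TPM need not be normal and groups that share a muscle are not independent, so the excess was not tested. The injured muscle of rat TS5.098 gave 27 of the 64 and that of rat TS5.025 gave 9.

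In rat TS5.098, without repair, the fibre genes lay above those of the other injured muscles of its arm. Contractile and calcium genes were at 21683 TPM (Acta1), 11370 TPM (Ckm), 4868 TPM (Myh4), 4698 TPM (Myh1), 5100.3 TPM (Atp2a1), 1185 TPM (Casq1) and 262 TPM (Mylk2). Metabolic genes stood at 1339.6 TPM (Cox8b), 229 TPM (Ndufs3), 781 TPM (Pfkm), 1931 TPM (Pgam2), 2263 TPM (Eno3), 2139 TPM (Pygm), 153 TPM (Slc2a4), 205 TPM (Acadm), 4.65 TPM (Ppara) and 188 TPM (Gpd1). Other genes lay above as well, at 116 TPM (RGD1565323), 50.9 TPM (LOC100910189), 13.3 TPM (Mstn), 6.61 TPM (Aqp4), 21.6 TPM (Ky) and 112 TPM (Atp1b2). The myeloid genes Csf1r (185 TPM), Irf8 (28.9 TPM) and C3ar1 (23.9 TPM) lay below the other muscles of the arm, and Socs3 (269 TPM) above.

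In rat TS5.025, with the graft, matrix and inflammatory genes lay above the other grafted muscles. They were Timp1 (949 TPM), Col1a1 (3707 TPM), Lox (168 TPM), Serpinh1 (1335.5 TPM), Tnc (94.3 TPM), Thy1 (237 TPM), Lcn2 (137.1 TPM), Slc2a1 (71.3 TPM) and Adipoq (6.47 TPM).

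The remaining high injured muscles without repair were rat TS5.001 for S100a8 (214 TPM), Hba1 (28012 TPM) and Hbb (29806 TPM), rat TS5.002 for Trim63 (759 TPM), rat TS5.029 for Lox (191 TPM), rat TS5.030 for Cd3e (7.4 TPM), Cxcl10 (78.3 TPM), Mx1 (66.7 TPM) and Ostn (4.81 TPM), and rat TS5.101 for Spp1 (9618 TPM), Cd36 (267 TPM) and Il1rn (135.3 TPM). With the graft they were rat TS5.005 for Mx1 (28.8 TPM) and Ciita (6.36 TPM), rat TS5.103 for Mstn (7.28 TPM) and Atp1b2 (63.7 TPM), and rat TS5.104 for Fos (79 TPM).

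Among contralateral muscles rat TS5.006 was high for Ccl7 (2.7 TPM), Mylk2 (1201 TPM) and Fos (68.7 TPM) and low for Myf6 (117 TPM) and Cox8b (2907 TPM). Rat TS5.005 was high for Smad3 (193 TPM), Chrna1 (24.8 TPM) and Slc40a1 (4.36 TPM) and low for Cdk1 (0.42 TPM). Rat TS5.002 was high for Lilrb4 (6.31 TPM) and rat TS5.001 for Mmp12 (0.04 TPM).

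The injury effect differed between running and not running rats, by the interaction test, for Slc51a (log2 difference -2.14), Cdkn1a (-1.93), Gadd45a (-1.93), Myog (-1.87), Bid (-1.64), Slco4a1 (-1.52), Tmem100 (-1.35), Lipg (-1.32), Cidea (-1.30), Emb (-1.28), Tuba4a (-1.24), Cd82 (-1.23), Tal2 (-1.09), Ttc9 (-1.02), Slc25a30 (1.14) and Irs2 (1.16). Of these 16 genes only 4 kept their calls in every fit that left out 1 muscle. Tmem100, Tuba4a, Ttc9 and Cidea lost theirs with rat as a random block. Between day 3 and day 7 the interaction test separated the effects for Gal (3.02), Cd163 (2.72), Cd8a (2.71), Aldh1a2 (2.53) and Glrx (2.52), which were higher at day 3, and for Myh8 (-5.97), Myh3 (-4.67), Mir6323 (-4.12), Scd (-4.07) and Tnmd (-3.96), which were lower.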

How the results depend on the processing

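The injury comparison gave 4763 called genes, and its planned and added alternatives gave 4456 (size factors) to 5439 (pseudocount 0.1). Leaving out 1 muscle gave 4624 to 4931, and the paired fits with a replicate block gave 4760 (rat as a random effect) and 4956 (rat as a fixed effect over the rats with both muscles). With size factors the split was 2464 higher and 1992 lower in place of 4020 and 743. The injured muscles of rats TS5.001 to TS5.032 against the same contralateral muscles gave 4952, and those of rats TS5.097 to TS5.104, a fit chosen after seeing the data, gave 4616.

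The 17 genes of the running comparison became 32 with a pseudocount of 0.1, 31 with size factors and 1 with all libraries kept, and 12 with rat as a replicate block. Without 1 muscle they ranged from 10 to 38, and the counts past 1.5 times came without the contralateral muscle of running rat TS5.001 (11) or TS5.006 (38), not running rat TS5.013 or TS5.014 (10 each), or the injured muscle of not running rat TS5.009 (28). The difference between repair arms (0) became 1 with a pseudocount of 0.1 and ranged from 0 to 6 without 1 muscle, 6 without the contralateral muscle of rat TS5.005 and 4 without that of rat TS5.006. The graft comparison (0) became 1 with all libraries kept and ranged from 0 to 1 without 1 muscle. The day comparison (911) ranged from 846 to 1021 without 1 muscle and was 1027 with the block, and its split was 493 higher and 356 lower with size factors in place of 407 and 504. The cause of these shifts was not tested.

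Over 204 named results and their alternatives, 6530 values kept direction and side of the threshold, 79 (without 1 muscle) and 47 (other alternatives) no longer passed, 24 newly passed and 0 changed direction after a call. Beside the calls given in the report, the block changed no other call of a named gene. The contralateral side held 4 muscles, and the depth of single libraries is unknown.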

Other observations

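Injured muscles of rats TS5.097 to TS5.104 (6 muscles) and of rats TS5.001 to TS5.030 (8 muscles) were compared after the data were seen, with repair as covariate. Of 10709 genes 76 (0.71%) were called, 42 higher (0.392%) and 34 lower (0.317%) in the first set. Most differences were below the fold limit, since limma gave 2653 genes an adjusted p under 0.05 without it. Hmgn5, a nucleosome-binding protein, was at 10.5 ± 3.12 TPM against 1.09 ± 1.6 TPM, a log2 difference of 2.61. Higher ones, picked after their values were seen, included the fibre genes Myh2 and Myh7. Myh2 was at 342 ± 118 against 124.7 ± 60.2 TPM (1.45) and Myh7 at 45.4 ± 26.6 against 17.8 ± 14.1 TPM (1.62). Lower ones, picked in the same way, included the tendon genes Kera (keratocan), Fmod and Comp. Kera was at 1.45 ± 1.74 against 23.4 ± 29.3 TPM (-2.87), Fmod at 4.77 ± 2.26 against 35.8 ± 37.5 TPM (-2.33) and Comp at 3.33 ± 2.02 against 24.8 ± 25.7 TPM (-2.25). The gene lists were not counted in this comparison. The mast cell protease Mcpt1l1 was at 9.82 ± 4.35 against 34 ± 18.2 TPM (-1.75). No contralateral muscle came from rats TS5.097 to TS5.104, so the injury effect in those rats rests on the contralateral muscles of other rats.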
